A study of Mus musculus with 8 samples.

Results

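The cells described here are those that the deposited cell table calls forebrain, midbrain and hindbrain, the developing brain of the mouse embryo at about embryonic day (E) 8.5. They were taken by 1 rule, the authors' combined atlas annotation being this label, and number 2371 of the 28723 cells in the table. The table holds 20157 WT and 8566 Eomes-KO cells, fewer of each than the paper's methods report as retained. In all 2371 the original atlas label is the same one. The study injected tdTomato+ male embryonic stem cells (ESC) lacking Eomes, a T-box transcription factor of the primitive streak, into wild-type blastocysts and asked which tissues such cells can form. Chimeric embryos were pooled at about 4 per tube, dissociated, sorted on tdTomato and sequenced with 10x 3′ chemistry. Each of the 4 pools carried 1 of 4 independent CRISPR-Cas9 loss-of-function clones and gave 1 tdTomato+ library (Eomes-KO, Eomes null) and 1 tdTomato− library (WT, the unlabelled host cells of the same embryos, from C57BL/6 matings of both sexes).

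No injected wild-type ESC library was analysed here, so loss of Eomes cannot be told apart from ESC origin or, in part, from sex. Eomes-KO and WT cells also shared embryos, so neither group developed on its own. GEO's labels give no replicate numbers. No library name identifies its pool, so libraries are called here by their total cells: 602, 1153, 3346 and 3465 for Eomes-KO, and 2414, 3791, 5819 and 8133 for WT. Cells analysed per library had medians of 5124 to 32560 unique molecular identifiers (UMIs, counted RNA molecules). Of 28643 distinct barcodes, 80 occurred in more than 1 library, and 11 brain cells carried one of them.

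The brain arises from the front of the neural plate and is divided early from front to back and from its dorsal to its ventral side. Otx2 marks forebrain and midbrain, Six3 the anterior forebrain and eye field, En1 the midbrain-hindbrain boundary and Egr2 particular segments (rhombomeres) of the hindbrain. The optic vesicle buds from the forebrain, and the floor plate is the ventral midline of the neural tube, known to be induced by the notochord beneath it. The table analysed holds labels, scores and quality measures but no gene counts, so the label could not be checked against Otx2, Six3, En1 and Egr2, and no gene expression is reported.

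Brain cells made up a smaller share of Eomes-KO than of WT cells. Shares were taken of epiblast-derived cells, which leaves out visceral, parietal and extraembryonic endoderm and extraembryonic ectoderm and keeps 8561 Eomes-KO and 19284 WT cells. In the Eomes-KO libraries the brain held 24 cells (3.99%, exact 95% interval 2.58 to 5.88), 27 cells (2.35%, 1.55 to 3.40), 127 cells (3.80%, 3.17 to 4.50) and 133 cells (3.84%, 3.22 to 4.53), in order of library size. In the WT libraries it held 272 cells (11.4%, 10.1 to 12.7), 531 cells (14.1%, 13.0 to 15.3), 453 cells (8.79%, 8.03 to 9.60) and 804 cells (10.1%, 9.43 to 10.8). The groups did not overlap, and the Eomes-KO library with the highest share lay below the lowest WT library. Means were 3.49% ± 0.769 (SD, n = 4) for Eomes-KO and 11.1% ± 2.28 (n = 4) for WT. In edgeR's quasi-likelihood test over 33 combined cell types the share fell by 1.66 on the log2 scale (SE 0.30, adjusted p = 0.00014). That call is read against a background in which 69.7% of the types passed, 48.5% lower and 21.2% higher in Eomes-KO.

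A share cannot tell fewer brain cells from more cells of other types. The difference was smaller when cells with a doublet score of 0.25 or more were left out (log2 -1.04, adjusted p = 0.0097, edgeR) and it did not pass with DESeq2's poscounts size factors (-1.17, adjusted p = 0.061). Over all alternatives the adjusted p ran from 4.9e-06 to 0.061.

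**Figure D1:**
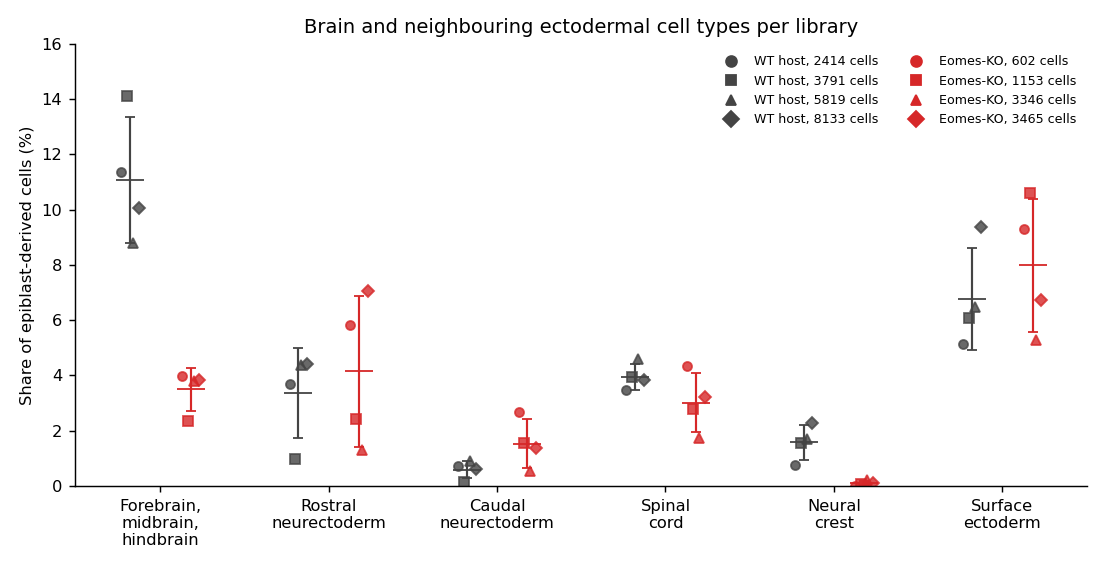
Share of epiblast-derived cells (%, linear axis) with the brain label and with 5 ectodermal neighbour labels; each point is 1 library, the horizontal line the mean of 4 libraries and the bar ± 1 SD. Brain shares were 2.35% to 3.99% in Eomes-KO and 8.79% to 14.1% in WT, while rostral neurectoderm and surface ectoderm overlapped between genotypes.

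The neighbouring ectodermal labels were compared in the same fit. Rostral neurectoderm, the younger anterior neural plate, was 4.15% ± 2.73 of Eomes-KO cells and 3.37% ± 1.63 of WT cells (SD, n = 4 each), with no difference past the threshold (edgeR log2 0.28, adjusted p = 0.66). Spinal cord, the neural tube behind the hindbrain, was 3.02% ± 1.07 against 3.95% ± 0.465 (log2 -0.42, adjusted p = 0.29). Surface ectoderm, the future skin, was 7.99% ± 2.42 against 6.77% ± 1.84 (log2 0.22, adjusted p = 0.56). Caudal neurectoderm, the posterior neural plate, was 1.53% ± 0.875 against 0.591% ± 0.312 (log2 1.27, adjusted p = 0.060). Neural crest, the migratory cells that leave the dorsal neural tube, was lower in Eomes-KO, at 12 cells against 347 and 0.103% ± 0.086 against 1.58% ± 0.634 (log2 -3.56, adjusted p = 8.0e-05). Of these 5 labels, neural crest alone passed in the same direction as the brain.

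The number of brain cells for each neighbour cell was then compared within libraries, which does not depend on lineages outside the pair. On the log2 scale with 0.5 added to both numbers, brain to surface ectoderm was -1.21, -2.16, -0.48 and -0.81 in Eomes-KO and 1.14, 1.22, 0.44 and 0.10 in WT. Surface ectoderm cells thus outnumbered brain cells in every Eomes-KO library, and brain cells outnumbered surface ectoderm cells in every WT library. The mean difference was -1.89 (exact two-sided permutation test p = 0.029, the smallest that 4 against 4 libraries allow, adjusted p = 0.048 over 5 ratios). Brain to caudal neurectoderm differed by -3.06 and brain to neural crest by 1.81, both without overlap and with the same exact p and adjusted p. Hence the brain was lower relative to caudal neurectoderm and surface ectoderm, and higher relative to neural crest. For spinal cord the difference was -1.22 (exact permutation p = 0.057, adjusted p = 0.071) and for rostral neurectoderm -1.89 (exact permutation p = 0.086, adjusted p = 0.086), with overlapping groups. In all, 3 of the 5 ratios passed (60%), but none did with a pseudocount of 1, with any 1 library left out (where the smallest exact p is 0.057), without both Eomes-KO libraries of under 50 brain cells (smallest p 0.13), within 10000 to 20000 UMIs, or below a doublet score of 0.25. The 3 differences kept their sign in each of those settings.

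Brain and rostral neurectoderm are successive labels of the anterior neural tissue. Of the cells with either label, brain cells were 40.7%, 49.1%, 74.7% and 35.3% by Eomes-KO library and 75.6%, 93.5%, 66.7% and 69.5% by WT library. The Eomes-KO library of 3346 cells lay within the WT range and the other three below it. Both labels together were 4.78% to 10.9% of Eomes-KO and 13.2% to 15.1% of WT epiblast-derived cells, without overlap.

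Each brain cell also carries a finer label from an extended atlas, transferred by the same mapping. Brain cells fell under 14 such labels, 11 of them with at least 10 cells. The largest was Ectoderm, an early label that names no region, with 753 cells. Of the labels that name a place, optic vesicle held 549 cells, ventral hindbrain progenitors 496, midbrain-hindbrain boundary 171, hindbrain floor plate 157, dorsal hindbrain progenitors 87, ventral forebrain progenitors 53, hindbrain neural progenitors 22, dorsal spinal cord progenitors 17 and midbrain progenitors 15. Migratory neural crest held 46, and late dorsal forebrain progenitors, non-neural ectoderm and cranial mesoderm held 1, 3 and 1 and were not fitted. Forebrain and hindbrain labels thus held most cells with a regional label, and the midbrain itself had few.

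**Figure D2:**
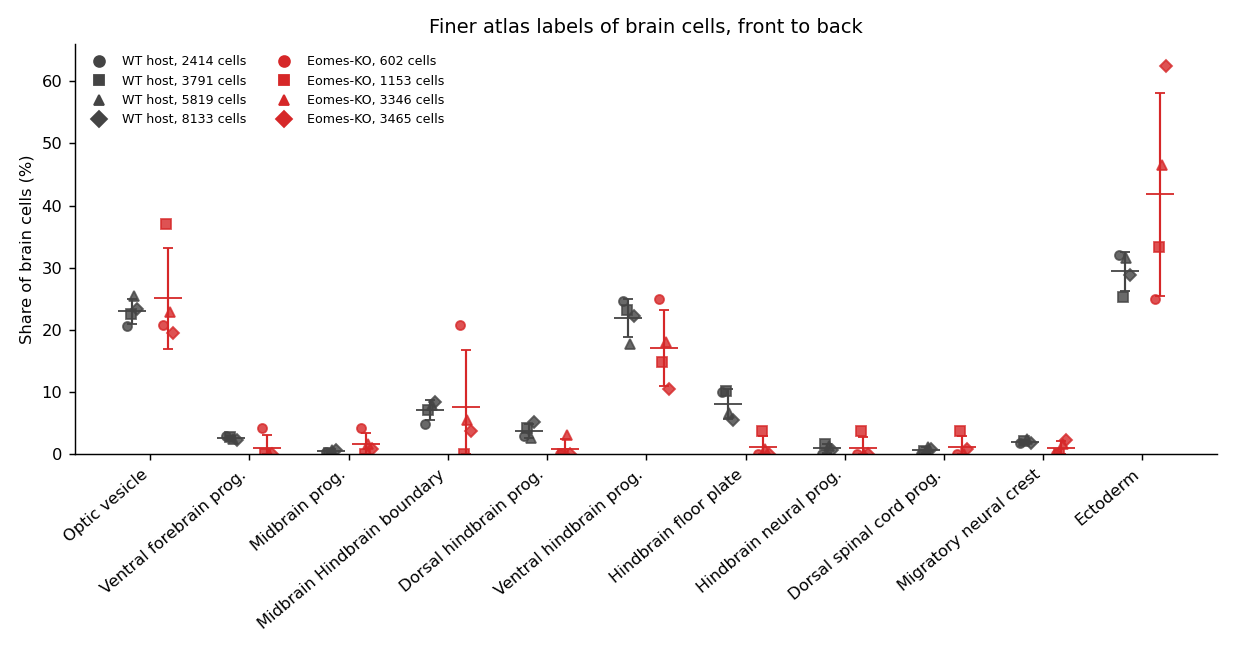
Share of the brain cells of each library (%, linear axis) under the 11 finer labels with at least 10 cells, ordered from forebrain to spinal cord and then labels that name no brain region; points are libraries, lines means of 4 libraries and bars ± 1 SD. Hindbrain floor plate was 0% to 3.70% in Eomes-KO and 5.47% to 10.2% in WT, and Ectoderm reached 62.4% in Eomes-KO.

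Hindbrain floor plate, the ventral midline of the hindbrain, was nearly absent from Eomes-KO brain cells. The Eomes-KO libraries held 0, 1, 1 and 0 floor plate cells (0%, 3.70%, 0.787% and 0% of brain cells), where a count of 0 allows up to 12.5% in the library of 602 cells and 2.26% in that of 3465. The WT libraries held 27, 54, 30 and 44 (9.93%, 10.2%, 6.62% and 5.47%). Means were 1.12% ± 1.76 and 8.05% ± 2.36 (SD, n = 4), and the groups did not overlap, as in 1 of the 11 labels (9.09%). Over all libraries, 2 of 311 Eomes-KO brain cells (0.643%, exact 95% interval 0.078 to 2.30) and 155 of 2060 WT brain cells (7.52%, 6.42 to 8.75) had this label, a WT to Eomes-KO ratio of 11.7 (interval 3.18 to 97.5, counting error only). In edgeR's test over the 11 labels the share fell in Eomes-KO (adjusted p = 0.00079), while limma on log2 shares did not call it (log2 -2.42, adjusted p = 0.066). The fitted edgeR log2 value of -3.51, which depends on the prior count at so few cells, became -2.74 without the Eomes-KO library of 3465 cells (adjusted p = 0.035) and -4.33 without that of 1153 cells (adjusted p = 0.0024). Of the 11 labels 18.2% passed, 9.09% lower and 9.09% higher. Among hindbrain-labelled cells alone, floor plate was 2 of 54 Eomes-KO cells (3.70%) and 155 of 708 WT cells (21.9%). The ratio was 5.91 (1.61 to 49.2, counting error only). By Eomes-KO library this share was 0%, 16.7%, 3.57% and 0%, of 6, 6, 28 and 14 hindbrain cells. By WT library it was 26.5%, 26.0%, 23.4% and 16.3%. The groups overlapped, and this share was not tested by library.

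Sequencing depth was related to this label within WT libraries. Between WT libraries the share did not rise steadily as depth fell, and the shallowest, that of 8133 cells, had the lowest share (5.47%). The median UMIs per brain cell were 35069, 21314, 17621 and 8586 by Eomes-KO library and 7650, 9785, 10159 and 4951 by WT library. Floor plate cells were shallow, with a median of 6217 UMIs. In each WT library their median (5649, 8159, 8062 and 4105) lay below that of the other brain cells (7813, 9954, 10336 and 4991).

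Brain cells were therefore also compared within limits of depth, which narrowed the gap in depth without closing it. Among brain cells with at least 10000 UMIs, 2 of 199 Eomes-KO cells and 18 of 540 WT cells were floor plate, a ratio of 3.32 (0.794 to 29.5), and the label did not pass (edgeR adjusted p = 0.41). Those cells still differed in depth, with medians of 17806 and 11813 UMIs, and 77 Eomes-KO cells but 1 WT cell lay above 20000. Within 10000 to 20000 UMIs, with medians of 14394 and 11802, the numbers were 2 of 122 and 18 of 539 (edgeR adjusted p = 0.46). Under 10000 UMIs they were 0 of 112, which allows a share of up to 2.68%, and 137 of 1520 (9.01%), so the share was at least 3.36-fold lower in Eomes-KO where a floor of 3 cells is taken for the whole group (edgeR adjusted p = 0.0040). By the exact 95% interval 0 of 112 allows up to 3.24%, and the ratio's interval begins at 2.70. Medians there were 7801 UMIs in Eomes-KO and 6030 in WT. These 112 cells came mostly from 1 library, that of 3465 cells with 95 of them, and the library of 602 cells had none, so 3 Eomes-KO libraries entered that test. Thus the lower share was detected among shallow cells and was not detectable among deep ones, where 20 floor plate cells remained in all. The part of depth in the result was not tested further.

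**Figure D3:**
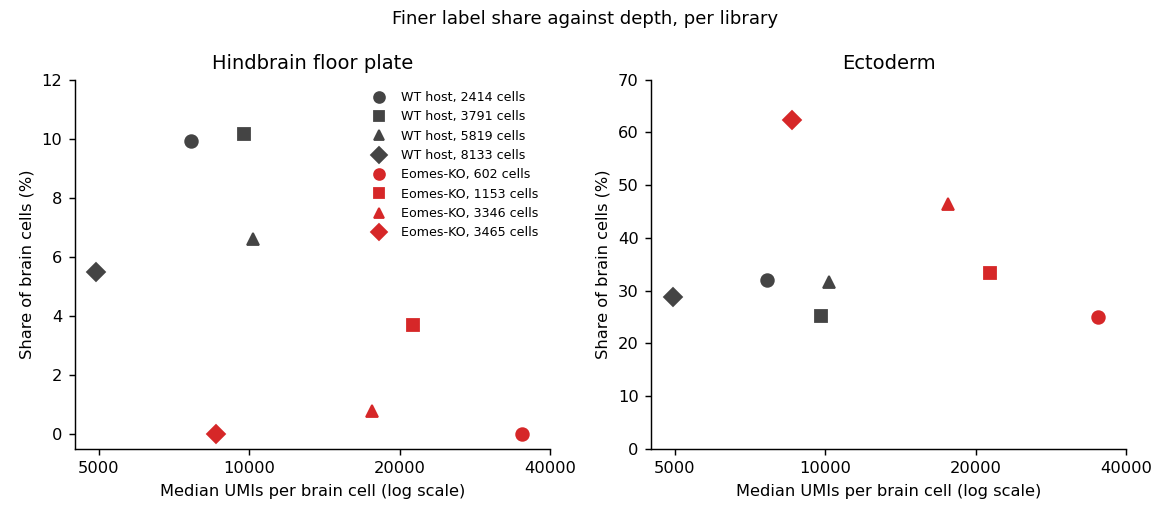
Share of brain cells (%, linear axis) with the finer label hindbrain floor plate (left) and Ectoderm (right) against the median UMIs per brain cell (log axis); each point is 1 library. The Eomes-KO library of 3465 cells, at 8586 UMIs, lay within the WT depth range of 4951 to 10159 and had 0% floor plate and 62.4% Ectoderm.

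Notochord, the tissue below the floor plate, has a combined label of its own. It held 1 of 8561 Eomes-KO and 58 of 19284 WT epiblast-derived cells, a WT to Eomes-KO ratio of 25.7 (4.44 to 1034). The lone Eomes-KO notochord cell was in the library of 1153 cells, which also had 1 floor plate cell. The library of 3346 cells had 1 floor plate cell and 0 notochord cells. The share of notochord was lower in Eomes-KO, as was that of floor plate, in a background where 48.5% of the combined types were called lower (edgeR). The part of notochord in the floor plate result was not tested.

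Other ventral and dorsal labels had too few Eomes-KO cells to be read closely. Ventral forebrain progenitors held 1 Eomes-KO cell, in the library of 602 cells, and 8, 15, 11 and 18 WT cells, a ratio of 7.85 (1.35 to 316). This label did not pass (edgeR adjusted p = 0.071), although without the library of 602 cells it did (adjusted p = 0.0055). Dorsal hindbrain progenitors held 4 Eomes-KO cells, all in the library of 3346 cells, and 83 WT cells (edgeR log2 -1.58, SE 0.78, adjusted p = 0.13). Without that library they passed (adjusted p = 0.023). With all 4 Eomes-KO libraries, ventral forebrain also passed over labels with at least 50 cells (edgeR adjusted p = 0.046) and below a doublet score of 0.25 (0.011). Under 10000 UMIs, with 3 Eomes-KO libraries, both labels passed (edgeR adjusted p = 0.044 and 0.039). Both were lower in Eomes-KO in every alternative run, and whether they passed depended on the setting.

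Optic vesicle, the eye primordium, was 20.8%, 37.0%, 22.8% and 19.5% of the brain cells by Eomes-KO library and 20.6%, 22.6%, 25.4% and 23.4% by WT library. The groups overlapped and the edgeR difference was -0.02 on the log2 scale (SE 0.25, adjusted p = 0.93). Among region-labelled brain cells alone, a setting chosen after seeing the data, optic vesicle was higher in Eomes-KO (edgeR log2 0.49, adjusted p = 0.043). With Ectoderm cells counted its sign also varied between settings, from -0.51 (10000 to 20000 UMIs) to 0.16 (under 10000 UMIs) on the log2 scale.

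Ventral hindbrain progenitors were 10.5% to 25.0% of Eomes-KO and 17.7% to 24.6% of WT brain cells (edgeR log2 -0.51, SE 0.28, adjusted p = 0.16), and passed below a doublet score of 0.25 (log2 -0.56, adjusted p = 0.038). The midbrain-hindbrain boundary, a signalling centre between both regions, ranged from 0% to 20.8% in Eomes-KO and from 4.78% to 8.33% in WT (log2 -0.39, adjusted p = 0.59). Both extremes of the boundary label came from the Eomes-KO libraries with 27 and 24 brain cells. Midbrain progenitors (4 and 11 cells), hindbrain neural progenitors (1 and 21), dorsal spinal cord progenitors (2 and 15) and migratory neural crest (5 and 41) also did not pass, with adjusted p of 0.39 to 0.93.

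Ectoderm was the label that passed in the other direction. It was 25.0%, 33.3%, 46.5% and 62.4% of brain cells by Eomes-KO library and 32.0%, 25.2%, 31.6% and 28.9% by WT library. The 3 larger Eomes-KO libraries lay above every WT library and the smallest lay below all of them. Means were 41.8% ± 16.3 and 29.4% ± 3.11 (SD, n = 4), and the edgeR share rose by 0.74 on the log2 scale (SE 0.19, adjusted p = 0.0015). The call was lost with TMM scaling (adjusted p = 0.093), both DESeq2 scalings (0.30 and 0.42), limma (0.39), at least 10000 UMIs (0.41), 10000 to 20000 UMIs (0.10) and without the Eomes-KO library of 3465 cells (log2 0.48, adjusted p = 0.14), while the sign stayed positive in each. Shares within the brain sum to 100%, so a rise of one label and a fall of others cannot be told apart.

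The finer labels were also summed into regions by the words in their names. Hindbrain labels together were 25.0%, 22.2%, 22.0% and 10.5% of Eomes-KO and 37.5%, 39.2%, 28.3% and 33.6% of WT brain cells. This sum includes floor plate (means 1.12% and 8.05% of brain cells), so it is not separate from the floor plate result. The highest Eomes-KO library was lower than the lowest WT library, with means of 19.9% ± 6.43 and 34.6% ± 4.85 (exact permutation p = 0.029, adjusted p = 0.17 over 6 regions). Within 10000 to 20000 UMIs the hindbrain difference was -0.058 percentage points (exact permutation p = 1), against -14.7 over all brain cells. These are differences of unweighted library means, and some libraries had few cells in that window. It held 122 Eomes-KO brain cells in all, and at most 10 from the WT library of 8133 cells. With at least 10000 UMIs the difference was -8.10 points (exact permutation p = 0.2). There hindbrain cells were 6 of 24, 5 of 25, 24 of 112 and 2 of 38 brain cells by Eomes-KO library. By WT library they were 13 of 45, 82 of 244, 52 of 241 and 2 of 10. Under 10000 UMIs the difference was -8.41 points (exact permutation p = 0.46). The Eomes-KO library of 602 cells had no brain cells there, so the smallest exact p was 0.057. The other Eomes-KO libraries held 1 of 2, 4 of 15 and 12 of 95. The difference passed in neither limit for deep cells, and under 10000 UMIs it could not pass. Forebrain labels with optic vesicle were 26.1% ± 7.62 and 25.7% ± 1.85 (exact permutation p = 0.97). The midbrain was 1.62% ± 1.81 and 0.491% ± 0.259, and the boundary 7.53% ± 9.16 and 7.05% ± 1.59. Spinal cord labels were 1.11% ± 1.76 and 0.635% ± 0.477, and all other tissues 43.7% ± 16.9 and 31.5% ± 3.06. None of the 6 passed (0%) in the exact permutation test, and hindbrain was the 1 region at an unadjusted p under 0.05.

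The mapping also gives each cell the stage of its nearest atlas cells, which is a transferred label and not a measured age. Brain cells mapped to E7.75 (52 cells), E8.0 (28), E8.25 (1332) and E8.5 (959). Their mean atlas stage was 8.38, 8.28, 8.26 and 8.26 days by Eomes-KO library and 8.32, 8.35, 8.35 and 8.35 days by WT library. The Eomes-KO library of 602 cells lay above all WT libraries and the other three below them, and the means of 8.29 ± 0.055 and 8.34 ± 0.014 days did not differ past the threshold (exact permutation p = 0.14). The difference passed among cells of 10000 to 20000 UMIs (-0.13 days, exact permutation p = 0.029) and below a doublet score of 0.25 (-0.069 days, exact permutation p = 0.029). Of 16 alternatives these 2 were stronger, 13 gave the same outcome and 1, with median stages, reversed the sign. The 24 brain cells of the library of 602 cells had a median of 35069 UMIs, above the first of these limits. None of the 4 stage shares passed (0%, and none at an unadjusted exact permutation p under 0.05), and the share at E8.5 was 28.6% ± 17.2 in Eomes-KO and 41.8% ± 6.31 in WT (exact permutation p = 0.17, adjusted p = 0.30).

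**Figure D4:**
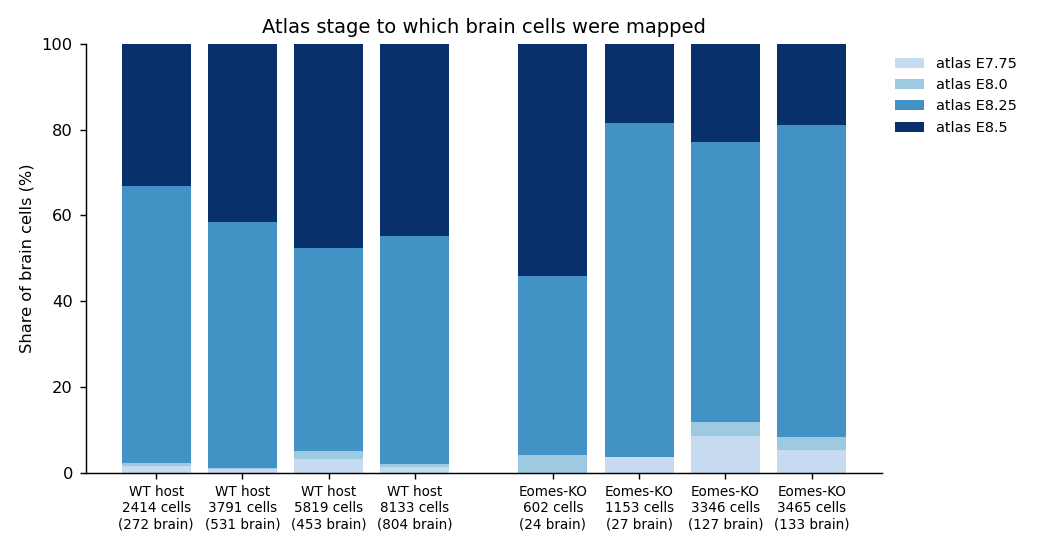
Atlas stage of the brain cells of each library as stacked shares (%, linear axis from 0 to 100), with the number of brain cells under each bar. The share at E8.5 was 54.2% in the Eomes-KO library of 602 cells, 18.5% to 22.8% in the other Eomes-KO libraries and 33.1% to 47.7% in the WT libraries.

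Atlas stage varied widely between finer labels. Of the Ectoderm cells 1.33% mapped to E8.5, against 78.4% of midbrain-hindbrain boundary, 73.6% of dorsal hindbrain, 68.8% of floor plate, 57.9% of ventral hindbrain, 53.0% of optic vesicle and 24.5% of ventral forebrain cells. By library, 0% to 2.59% of Ectoderm cells and 31.25% to 72.2% of region-labelled cells mapped to E8.5. Stage and finer label come from the same nearest atlas cells, so these shares are a description without a test. Among region-labelled cells alone, the mean stage was 8.43, 8.33, 8.36 and 8.38 days by Eomes-KO library and 8.37, 8.39, 8.42 and 8.41 days by WT library. That difference of -0.023 days (exact permutation p = 0.37) was smaller than the -0.051 days over all brain cells. Among Ectoderm cells alone it was -0.032 days (exact permutation p = 0.11). Both settings were chosen after seeing the data.

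Brain cells mapped to later stages than the other epiblast-derived cells of their library in 8 of 8 libraries. The brain label and the stage come from the same nearest atlas cells, so this order follows in part from how the cells were chosen. The difference in mean stage was 0.141 ± 0.074 days in Eomes-KO and 0.134 ± 0.055 days in WT (exact permutation p = 0.89). Some neighbour labels also mapped late. WT neural crest was later than WT brain cells in each library (8.43, 8.46, 8.5 and 8.48 against 8.32, 8.35, 8.35 and 8.35 days). WT spinal cord was close to the brain, at 8.31, 8.35, 8.29 and 8.35 days. Rostral and caudal neurectoderm and surface ectoderm mapped earlier than the brain in every library, as did Eomes-KO spinal cord. Eomes-KO neural crest had 12 cells, too few to compare. These neighbour values were not tested.

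Label scores, which give how many of a cell's 15 nearest atlas cells have the transferred label as a fraction, were alike in size in both genotypes. The median score of the brain label was 0.95 ± 0.064 in Eomes-KO and 0.983 ± 0.033 in WT, that of the finer label 0.717 ± 0.064 and 0.733 ± 0.054, and that of the stage 0.65 ± 0.064 and 0.683 ± 0.033. None of the 3 passed (0%, exact permutation test, adjusted p of 1 for each, none at an unadjusted p under 0.05). Among finer labels, floor plate had the highest median finer score of the fitted labels (0.867), followed by optic vesicle and ventral hindbrain (0.8 each), and midbrain progenitors the lowest (0.333). The brain label itself scored 0.8 in Ectoderm cells, 0.733 in migratory neural crest cells and 0.6 in dorsal spinal cord cells, against 0.933 to 1 in the fitted labels that name a brain region.

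Quality of the brain cells overlapped between genotypes. Mean library medians for Eomes-KO and WT were 20648 ± 11001 and 8136 ± 2394 UMIs, and 4310 ± 1287 and 2686 ± 490 genes (exact permutation p = 0.086 and adjusted p = 0.21 for both). Mitochondrial RNA was 1.32% ± 0.321 and 1.26% ± 0.186, ribosomal RNA 26.9% ± 0.974 and 26.2% ± 0.981, and the doublet score 0.165 ± 0.079 and 0.198 ± 0.033. None of the 5 measures passed (0%, exact permutation test, none at an unadjusted p under 0.05). The doublet score of brain cells minus that of the other cells of the library was lower in Eomes-KO (-0.068 ± 0.051) than in WT (0.023 ± 0.025) without overlap (exact permutation p = 0.029, adjusted p = 0.14).

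Eomes-KO brain cells had 277 distinct nearest atlas cells and WT brain cells 1468, of which 126 were shared. That is 45.5% of those of Eomes-KO and 8.58% of those of WT.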

How the data were processed

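Per the labels and the paper's methods, the authors used Cell Ranger 6.0.1 and the mm10 build to count UMIs, and removed doublets before deposit. They mapped each library to an atlas of mouse gastrulation. The deposited table gives 1 line per cell, with the UMI count and number of genes as raw counts, mitochondrial and ribosomal percent of UMIs, the authors' doublet score, and label scores as a fraction of 15 nearest atlas cells. The authors' UMAP coordinates were not used.

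Genotype was read from the table's tdTomato column. Cell numbers by label were compared in edgeR 4.0.16 (glmQLFit and glmQLFTest, no further scaling) in R 4.3.3, with epiblast-derived cells (combined types) or brain cells (finer labels) as library size, labels under 10 cells left out, and Benjamini-Hochberg adjusted p under 0.05. SE is the fitted log2 difference over the square root of its F statistic. Other values were compared by two-sided exact permutation of 4 against 4 libraries (70 arrangements, scipy 1.17.1). Libraries of both genotypes share 4 pools, which the tests treat as independent. Separate pools are stated in the study's methods, not in the labels. A pool block could not be fitted. Of 12 pairs of libraries of one genotype, 3 differed in the finer labels of brain cells at a chi-square p under 0.05. The edgeR label test was tried on counts simulated for the combined types and their library sizes, not for the finer labels of brain cells.

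Brain cells per library numbered 24 to 804, which sets the precision. Binomial intervals are exact (Clopper-Pearson, 95%). These intervals, those of ratios of pooled cells and the floors of 3 cells cover counting error only. Alternatives included limma 3.58.1, DESeq2 1.42.0, TMM, UMI, score and doublet filters, and each library left out. The text names every finer label with at least 10 brain cells (smaller ones once), every region and stage, and the neighbour types listed; notochord was added after its values were seen. The members and lists were chosen with earlier results of these data known.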

Additional observations from a re-analysis of the deposited data

Results flagged for a closer look

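In 90 groups of 4 libraries, 12 held a library far from the other three by Dixon's test at the 95% level. In 8 of them the other three were equal (counts of 0, or scores in steps of the 15 nearest cells), so that any other value would have met the limit, and the chance rate of about 5% of groups applies only without such ties. Among Eomes-KO libraries these were the library of 1153 cells for its brain share (2.35%) and its hindbrain neural progenitors (3.70%, 1 cell), and the library of 602 cells for its share of brain cells at E8.5 (54.2%), its ventral forebrain progenitors (4.17%, 1 cell) and its stage score of brain minus other cells (0.2). The library of 3346 cells stood apart for dorsal hindbrain progenitors (3.15%, 4 cells) and for its finer score of brain minus other cells (-0.067), and the library of 3465 cells for the mitochondrial percent of brain cells (1.8%). Among WT libraries, that of 2414 cells had the lowest mean atlas stage (8.32 days). That of 8133 cells stood apart for its brain label score (0.933), its stage score (0.733) and a brain label score equal to that of its other cells (difference 0).

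The genotype contrast differed between the brain and 3 neighbour types by the within-library ratios (log2, exact permutation test p = 0.029 and adjusted p = 0.048 for each). The differences were -3.06 against caudal neurectoderm, -1.89 against surface ectoderm and 1.81 against neural crest.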

How the results depend on the processing

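No paired analysis was possible because the library names do not give the embryo pool. The lower brain share kept its direction in 24 of 24 alternatives and its call in 23 of them, the exception being DESeq2 with poscounts (log2 -1.17, adjusted p = 0.061), and left-out libraries gave -1.76 to -1.52. Other scalings moved the median of all types by -0.14 (TMM), -0.91 (DESeq2 ratio) and 0.60 (poscounts), and that of finer labels by 0.21 at most. The number of finer labels past the threshold was 2, against 1 with TMM and either DESeq2 scaling, 0 with limma, at least 10000 or 10000 to 20000 UMIs, 4 under 10000 UMIs or below a doublet score of 0.25, and 1 to 3 with a library left out (1 without the Eomes-KO library of 3465 cells). Floor plate was lower in each, and lost its call with limma (adjusted p = 0.066) and in both filters for deep cells. The 3 ratios past the threshold became 0 in 12 settings (left-out libraries 0 to 0), among them a pseudocount of 1. The stage difference was -0.13 at 10000 to 20000 UMIs and -0.069 below a doublet score of 0.25, both past the threshold, and 0.0625 with median stages.

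Differences that did not pass changed sign as follows, and the cause was not tested. In log2, dorsal spinal cord became 0.25 (DESeq2 ratio), 0.095 (poscounts), 1.28 (limma) and 0.45 (under 10000 UMIs), and optic vesicle 0.13, 0.0089, 0.11 and 0.16 in the same order. With a library left out they ran from -0.96 to 0.58 and from -0.13 to 0.11. Hindbrain neural progenitors became 0.51 (limma) and migratory neural crest 0.18 (under 10000 UMIs). With region-labelled cells alone, optic vesicle became 0.49, the midbrain-hindbrain boundary 0.12 and ventral hindbrain 0.0039. In percentage points, forebrain became -1.58, -8.50, -1.98 and -4.46, and the boundary -2.02, -7.10, -1.20 and -2.42 (at least 10000 UMIs, 10000 to 20000 UMIs, doublet score under 0.25, without both small Eomes-KO libraries). Spinal cord became -0.458 (label score at least 0.5), -0.519 (10000 to 20000 UMIs), -0.066 (doublet score), -0.259 (without both small libraries) and -0.162 (under 10000 UMIs), and midbrain -0.313 and -0.035 (10000 to 20000 and under 10000 UMIs). With a library left out, forebrain ran from -3.19 to 2.64, the boundary from -3.96 to 2.98 and spinal cord from -0.384 to 0.850. The finer score became 0.05 in both filters for deep cells and ran from -0.044 to 0.0056 with a library left out, and mitochondrial percent from -0.094 to 0.136. Small libraries, under 10000 UMIs and region-labelled cells were settings chosen after seeing the data.

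Precision is limited by the 24 and 27 brain cells of the smaller Eomes-KO libraries and by 4 libraries a group.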

Other observations

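Brain cells differed from the other epiblast-derived cells of their own library in 1 of 5 quality measures, in a comparison chosen after seeing the data. The ribosomal percent of brain cells was higher in 8 of 8 libraries, by 0.33 percentage points on average (SD 0.192, range 0.06 to 0.65, exact sign-flip permutation p = 0.0078, the smallest that 8 libraries allow, adjusted p = 0.039). The mitochondrial percent was lower in 7 of 8 libraries, by -0.38 percentage points on average (SD 0.291, exact sign-flip permutation p = 0.023, adjusted p = 0.059), and the exception was the Eomes-KO library of 3465 cells (0.15 higher). Ribosomal percent differed by 0.33 points in each genotype. The 8 libraries come from 4 pools and are not fully independent.

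The finer label hindbrain floor plate occurred in 3 cells outside the brain label, none of them Eomes-KO.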
